A study of Homo sapiens with 4 samples.

Results

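A set of 10 genes of the heterogeneous nuclear ribonucleoprotein (hnRNP) family was examined in RNA bound by J2, an antibody against double-stranded RNA (dsRNA), and in total RNA (Input) of NCI-H1944 cells, an established line from a lung adenocarcinoma that the labels give as wild type. The genes were HNRNPC, HNRNPDL, HNRNPA1, HNRNPA2B1, HNRNPK, HNRNPU, HNRNPM, HNRNPD, HNRNPH1 and HNRNPF, 10 of 27575 gene names carried by the count tables. They were chosen by name, with HNRNPC taken for a loss of J2 signal at a steady level in total RNA, so its J2 and Input values are given as a description. Their names stood on 1446 of 3814162 regions of the J2 table and on 940 of 2310971 regions of the Input table. Cells of the MPS1i groups received 100 nM BAY-1217389, an inhibitor of the mitotic checkpoint kinase MPS1, for 48 h, followed by washout and 24 h without drug. Cells of the DMSO groups received the solvent in place of the drug. The 4 groups were MPS1i J2, DMSO J2, MPS1i Input and DMSO Input, with 1 library in each, and Input was 10% of the same lysate from which J2 took the rest. Each difference below therefore compares libraries, has no replicate check and carries counting error only. In RNA from whole cultures, fewer cells that express a gene and less RNA per cell cannot be told apart.

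Summed counts were 6697479 reads for MPS1i J2, 9793355 for DMSO J2, 4844956 for MPS1i Input and 6381610 for DMSO Input. Mitochondrial regions held 0.836% and 0.608% of the J2 reads and 20.2% and 24.3% of the Input reads of MPS1i and DMSO cells. The 6 interferon-stimulated genes that served as a check of the treatment summed to 745 and 717 CPM (counts per 1000000 counted reads) in MPS1i J2 and MPS1i Input, against 48.3 and 49.2 CPM in DMSO J2 and DMSO Input. All 6 were higher in MPS1i cells in both tables. The 6 lung epithelium markers summed to 52.7 and 110 CPM in MPS1i J2 and Input, against 63.6 and 113 CPM in DMSO J2 and Input, and 4 of the 6 had 50 or more reads over the 4 libraries (KRT8, KRT18, KRT7 and CDH1). Of the other 2, EPCAM had 4 and 0 reads in MPS1i J2 and Input against 13 and 13 in DMSO J2 and Input, and the lung factor NKX2-1 had 3 reads in MPS1i J2 and none in the other libraries. Of 5 fibroblast markers, COL1A1 was at 0 in all 4 libraries and FAP alone passed 50 reads, at 629 in MPS1i J2 against 33 in DMSO J2 and at 317 in MPS1i Input against 36 in DMSO Input. The summed level of 5 leukocyte markers was 17.5 and 12.2 CPM in MPS1i J2 and Input, against 3.88 and 2.66 CPM in DMSO J2 and Input. The part of these markers in the hnRNP values was not tested.

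The hnRNPs are abundant nuclear proteins that coat nascent transcripts through RNA recognition motifs or KH domains and steer splicing, 3' end formation, export and stability. The C proteins form tetramers that bind runs of uridine and package long nascent RNA. They are known for competing with the splicing factor U2AF2 at antisense Alu elements in introns, which keeps those Alu sequences from being spliced in as exons. Inverted Alu copies in introns and 3' ends can fold into duplexes, and J2 recovers such duplexes. The regions that carry these gene names lay mostly in introns or past the ends of the genes in the deposited annotation, so the values describe intronic and flanking RNA more than mature mRNA.

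A gene's level was the sum of its regions on its own strand in CPM. The regions were those that the deposited HOMER annotation gave that gene's name, unless overlap with the annotated gene is stated. A gene was called higher or lower when the 2 libraries held at least 50 reads together, the CPM differed at least 2-fold, and the exact 95% counting interval of the ratio excluded 1. Brackets below hold that interval on the log2 scale, where the ratio is MPS1i over DMSO and is computed with 0.5 added to each count.

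By gene name, 7 of the 10 hnRNP genes reached 50 reads in the J2 libraries. HNRNPC, HNRNPM and HNRNPF were lower in MPS1i J2, and HNRNPDL and HNRNPA2B1 were higher. Across all 13839 gene names measured in J2, 17.3% were lower and 21.2% were higher. With 7 genes measured and calls this common, the counts were read as a description of these genes only. In Input 8 members were measured, 1 was higher (HNRNPDL) and none was lower, against 17.0% higher and 13.5% lower of 12456 gene names. The Input ratio lay below 0 for 7 of these 8 members, with a median of -0.69 on the log2 scale against -0.05 over all genes measured. HNRNPA1 and HNRNPU stayed below the minimum in both tables, and HNRNPK did so in J2.

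**Figure D1:**
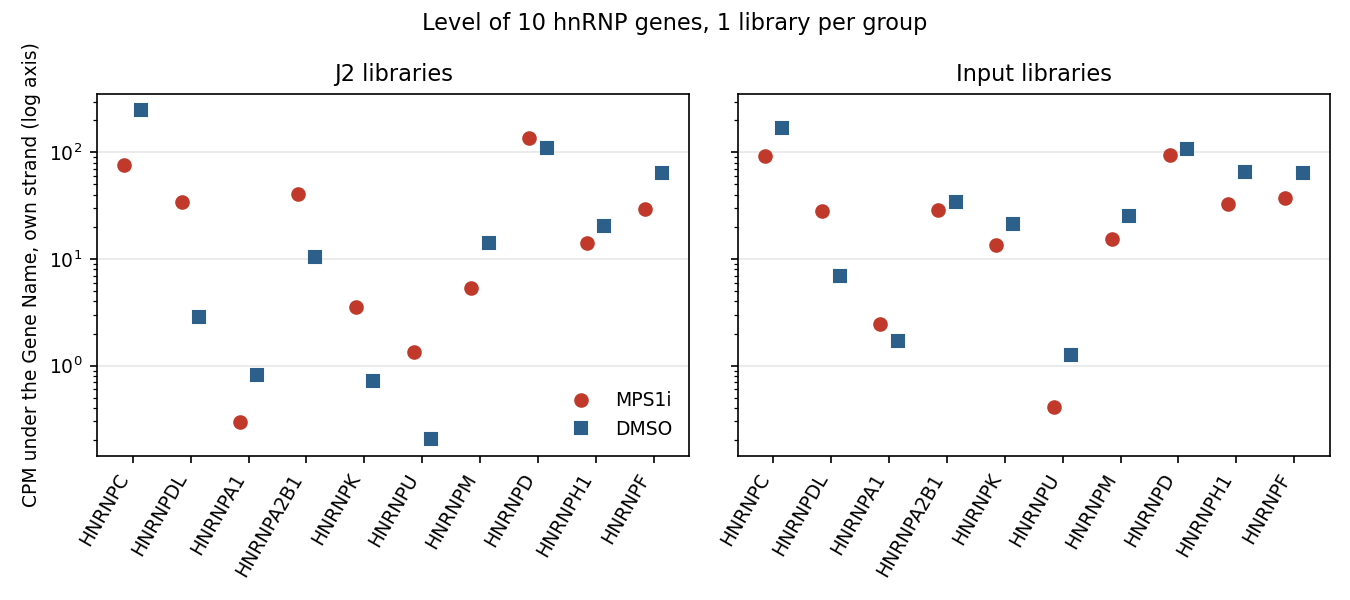
Level of the 10 hnRNP genes in CPM on a log axis, by gene name on the gene's own strand, in the J2 libraries (left) and the Input libraries (right), with MPS1i as red circles and DMSO as blue squares, 1 library per point. HNRNPC stands at 76.3 CPM in MPS1i J2 against 250 CPM in DMSO J2, the highest level plotted, while HNRNPDL, HNRNPA2B1 and, on fewer than 50 reads, HNRNPK and HNRNPU have MPS1i more than 2-fold above DMSO in J2.

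HNRNPC had 511 reads in MPS1i J2 against 2445 in DMSO J2, and 451 reads in MPS1i Input against 1072 in DMSO Input. As levels these were 76.3 CPM against 250 CPM in J2 and 93.1 CPM against 168 CPM in Input. MPS1i was the lower library in both pairs. The log2 ratio was -1.71 in J2 [-1.85 to -1.57], a value below which 3.82% of 13839 genes lay. It was -0.85 in Input [-1.01 to -0.69], which stayed short of the 2-fold rule and below which 17.8% of 12456 genes lay. With TMM or median-of-ratios factors in place of the summed count, the Input ratio was -1.0 or -1.05 and HNRNPC was called lower in Input too. Counted by gene name, therefore, the HNRNPC signal in Input lay below that of DMSO, short of the rule with the summed count. Regions of that name inside the gene held 5.05% of its own-strand Input reads in MPS1i and 12.0% in DMSO. This value thus describes a part of the gene's RNA, mostly intronic. The J2 enrichment of HNRNPC, its J2 over its Input level, was -0.29 [-0.47 to -0.10] on the log2 scale in MPS1i cells against 0.57 [0.47 to 0.68] in DMSO cells. The change of enrichment was -0.86 [-1.07 to -0.65], which did not pass the 2-fold rule.

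Taken by overlap with the annotated gene, the Input level of HNRNPC was not lower in MPS1i, and this rested on 1 region. HNRNPC lies on the minus strand of chromosome 14 (GRCh38, 21209136 to 21269494, 60.4 kb, GENCODE release 29). On its strand the annotated gene held 924 reads in MPS1i J2 against 5478 in DMSO J2, a log2 ratio of -2.02 [-2.12 to -1.92]. In Input it held 8847 reads in MPS1i against 8923 in DMSO, a log2 ratio of 0.39 [0.34 to 0.43]. Of these, 8232 reads in MPS1i Input and 6968 reads in DMSO Input were counted in a region of 2 bases, chr14:21211809-21211810, which HOMER placed in an intron and named after the neighbouring long noncoding RNA LINC00641. GENCODE places 1 of the 2 bases at the 3' end of exon 6 of 7 of the HNRNPC-201 transcript and the other in the next intron. All 23 annotated transcripts with an exon there share that exon boundary. That exon is shown because the region that holds most of the gene's Input reads touches its last base. It is 114 bases long, lies within the coding sequence at chr14:21211810-21211923 on the minus strand, and is printed from the GENCODE transcript with the counted base in capitals.
HNRNPC exon 6: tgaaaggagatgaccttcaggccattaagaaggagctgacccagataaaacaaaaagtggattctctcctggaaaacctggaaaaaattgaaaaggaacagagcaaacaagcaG

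No own-strand region of the J2 table covered those 2 bases, so the J2 value and the Input value of the annotated gene were taken over different sequence. Without regions of 20 bases or fewer, the HNRNPC gene held 615 reads in MPS1i Input against 1955 in DMSO Input, and the log2 ratio was -1.27 [-1.40 to -1.14], past the 2-fold rule. The change of J2 enrichment was then -0.75 [-0.91 to -0.58], against -2.40 [-2.51 to -2.29] with the 2-base region. Summed over these regions, which differ between J2 and Input, both thus fell, and J2 fell further. Over 11 HNRNPC regions matched between J2 and Input, the change was -0.68 [-1.37 to 0.00], so the further fall of J2 was less certain there. HNRNPC also has processed copies elsewhere in the genome with nearly the same exon sequence, and how reads that map to several places were counted is not given in the sources used here, so the origin of the reads at the exon end is uncertain.

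**Figure D2:**
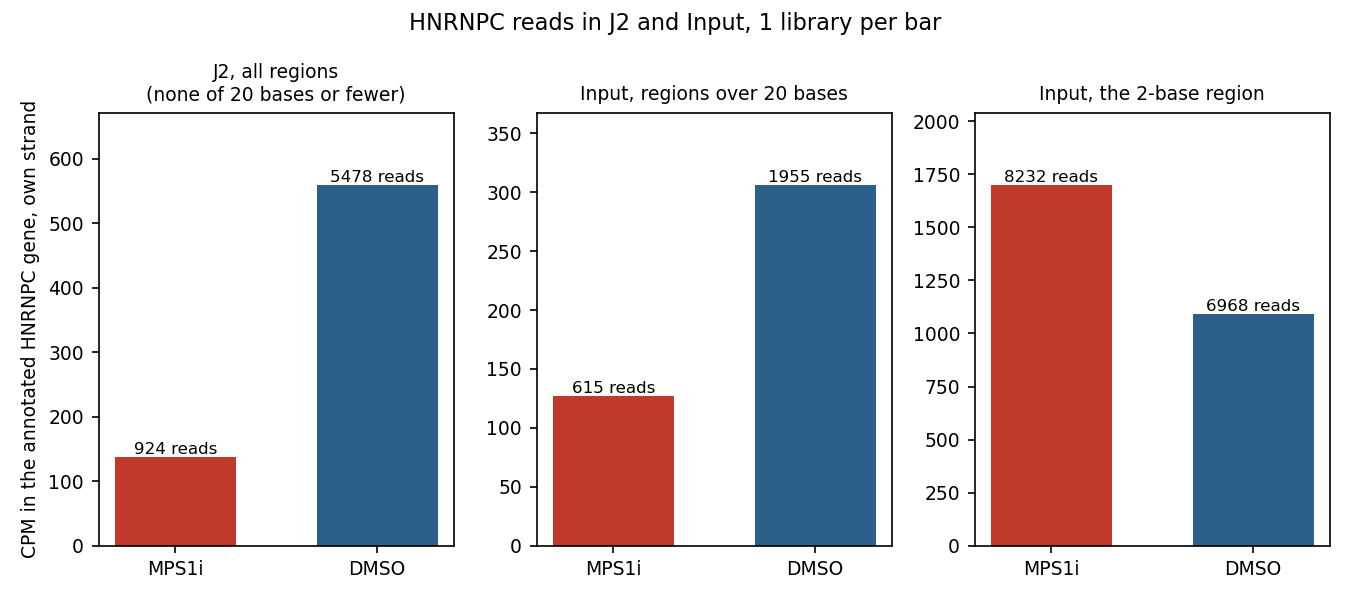
CPM of HNRNPC, by overlap with the annotated gene on its own strand, in J2 (left), in Input regions over 20 bases (middle) and in the 2-base Input region (right), each panel with its own axis from 0, MPS1i in red and DMSO in blue, 1 library per bar. MPS1i is lower in the left and middle panels (924 against 5478 reads and 615 against 1955 reads) and higher in the right panel (8232 against 6968 reads).

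The name given to a region mattered as much as its position. Of 128 J2 regions on the strand of the annotated HNRNPC gene, 66 were named LINC00641, the noncoding gene next along the strand, and they held 416 reads in MPS1i J2 against 3040 in DMSO J2, a log2 ratio of -2.32 [-2.47 to -2.17]. The 62 regions that kept the name HNRNPC held 508 reads against 2438, a log2 ratio of -1.71 [-1.86 to -1.58]. Names thus split the gene at about its middle, and the stretch toward its 3' end was the lower one.

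All 55 J2 regions of the annotated HNRNPC gene with at least 10 reads were lower in MPS1i J2, with a median log2 ratio of -1.92, and 39 of them had an interval below 0. In Input 39 of 50 such regions were lower in MPS1i and 11 were higher, with a median of -1.30. The most-read J2 region of the gene, chr14:21219238-21220238 in an intron near the 3' end, had 74 reads in MPS1i J2 against 640 in DMSO J2, a log2 ratio of -2.56 [-2.93 to -2.22]. The next, chr14:21258403-21259884 in the long intron near the start, had 90 against 606 reads, a log2 ratio of -2.20 [-2.54 to -1.88]. An intronic region with an AluJo copy, chr14:21261043-21262588, had 64 against 358 reads, a log2 ratio of -1.93 [-2.34 to -1.55]. These regions all had a lower level in MPS1i J2.

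The other regions among the 5 most-read J2 regions under the name HNRNPC were chr14:21267157-21268611 with 44 reads in MPS1i J2 against 214 in DMSO J2, chr14:21247076-21247809 with 36 against 178 reads, and chr14:21239670-21241153 with 23 against 130 reads. In Input the most-read region under that name, chr14:21258780-21259883, overlaps the second J2 region above and had 97 reads in MPS1i against 233 in DMSO, a log2 ratio of -0.86 [-1.22 to -0.52]. The next most-read Input region under that name, chr14:21267306-21268587 near the start, had 69 against 108 reads, a log2 ratio of -0.25 [-0.71 to 0.20], so its interval included 0.

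Along the gene the ratios were lower on the side of the end than on the side of the start, without a steady order of bins. The fourth J2 bin had the ratio nearest to 0, at -1.41, and the second J2 bin was at -1.96. In 10 equal bins over regions of more than 20 bases, the first J2 bin held 80 reads in MPS1i against 326 in DMSO, a log2 ratio of -1.47 [-1.85 to -1.12], and the ninth held 90 against 737 reads, a ratio of -2.48 [-2.82 to -2.17]. In Input the first bin held 107 against 164 reads, a ratio of -0.22 [-0.58 to 0.14], and the seventh held 21 against 182 reads, a ratio of -2.69 [-3.44 to -2.06]. The 5 bins nearest the end together had a ratio of -2.29 in J2 and -1.99 in Input, and the 5 bins nearest the start had -1.73 in J2 and -0.85 in Input. End side minus start side was -0.57 [-0.77 to -0.37] in J2 and -1.14 [-1.43 to -0.86] in Input, where these intervals are delta-method counting intervals. Over all protein-coding genes with at least 50 reads on each side, the median of that difference was -0.08 in J2 (6734 genes, 53.8% with the end side lower) and -0.26 in Input (5624 genes, 61.7% with the end side lower). Taken over these sides, J2 and Input ratios were farther apart toward the start than toward the end of HNRNPC, with exceptions such as the eighth bin, at -2.34 in J2 and -1.45 in Input.

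**Figure D3:**
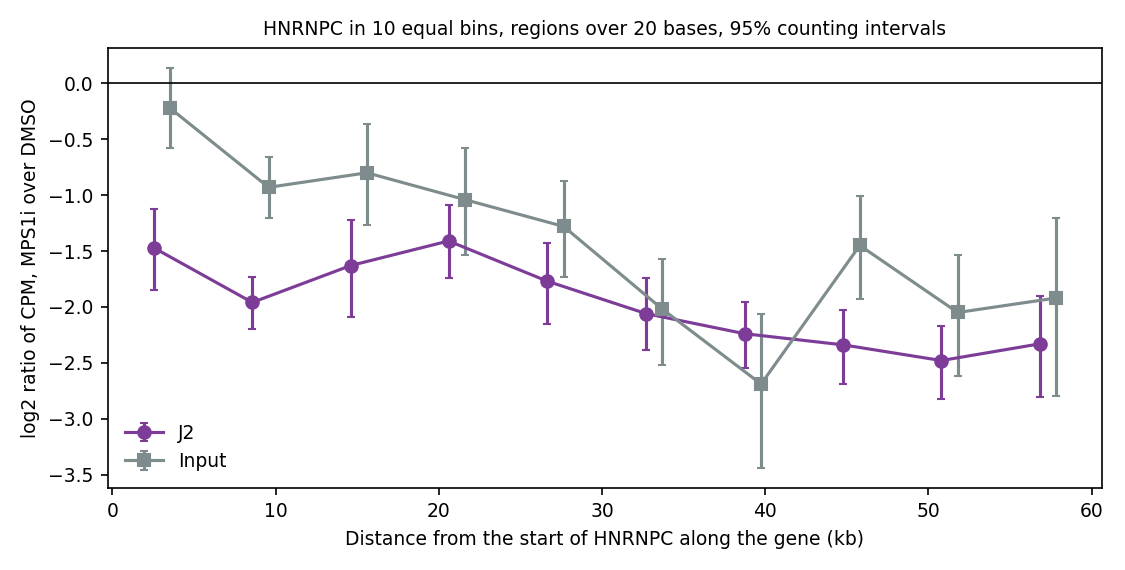
Log2 ratio of CPM, MPS1i over DMSO, in 10 equal bins from the start to the end of HNRNPC (x axis in kb from the start), J2 as purple circles and Input as grey squares, bars showing 95% counting intervals and 1 library per group. J2 lies between -1.41 and -2.48 throughout, while Input begins at -0.22 and reaches -2.69 in the seventh bin.

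HNRNPC was lower in MPS1i J2 in regions with and without repeats, counted without regions of 20 bases or fewer. J2 regions of the gene with an annotated Alu copy held 237 reads in MPS1i against 1152 in DMSO, a log2 ratio of -1.73 [-1.94 to -1.53]. J2 regions without any annotated repeat held 515 against 3423 reads, a ratio of -2.18 [-2.32 to -2.05], and 55.7% and 62.5% of the gene's J2 reads in MPS1i and DMSO. In Input the order was the other way round, with 27 against 186 reads and a ratio of -2.36 [-3.03 to -1.80] in regions with an Alu and 457 against 1408 reads and -1.22 [-1.38 to -1.07] in regions without a repeat. The 2-base Input region, which holds no repeat, was left out here. The summed ratio of the longer regions was below 0 in each repeat class, although single Input regions were higher in MPS1i.

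The J2 region with the most reads near HNRNPC lay just past its end. Between the end of HNRNPC and the start of LINC00641, 1 minus-strand region of 2184 bases, chr14:21206900-21209083, held 765 reads in MPS1i J2 against 2585 in DMSO J2, a log2 ratio of -1.21 [-1.33 to -1.09]. It contains a MADE1 copy, a short mobile element with inverted repeats at its ends. The matching Input region, chr14:21206901-21209029, held 333 against 896 reads, a ratio of -1.03 [-1.22 to -0.85]. J2 reads past the end of HNRNPC therefore fell too, and by less than those inside the gene; in Input the fall past the end, also past the 2-fold rule, lay between the ratios inside the gene by name and by overlap without the 2-base region.

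HNRNPM and HNRNPF were the other members with lower J2 signal. HNRNPM, a splicing regulator bound to GU-rich sites, had 36 reads in MPS1i J2 against 137 in DMSO J2 and 74 reads in MPS1i Input against 162 in DMSO Input. The log2 ratios were -1.37 [-1.95 to -0.84] in J2 and -0.73 [-1.15 to -0.33] in Input. MPS1i was lower in both pairs, and only J2 passed the rule. By overlap with the annotated gene (chromosome 19, 8444767 to 8489114, plus strand) HNRNPM fell in both, with 51 against 270 reads in J2, a ratio of -1.84 [-2.32 to -1.42], and 63 against 246 reads in Input, a ratio of -1.56 [-1.99 to -1.16]. Here too the regions of the gene that HOMER named after a neighbour, PRAM1, were the lowest: 18 against 152 reads in J2 and 4 against 93 in Input, ratios of -2.50 [-3.32 to -1.82] and -3.98 [-6.05 to -2.74]. The most-read J2 region inside the gene, chr19:8475401-8475905 with an AluJo copy, had 2 reads in MPS1i J2 against 29 in DMSO J2.

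HNRNPF, which binds G-rich sequence and acts on splicing and polyadenylation, had 197 reads in MPS1i J2 against 623 in DMSO J2 and 182 in MPS1i Input against 410 in DMSO Input. The log2 ratios were -1.11 [-1.35 to -0.88] in J2 and -0.77 [-1.03 to -0.52] in Input. Its most-read J2 region, chr10:43402261-43402889 with an L1MEj copy in the first intron, had 29 against 153 reads, a ratio of -1.83 [-2.48 to -1.27]. Without that region the J2 ratio was -0.93 [-1.20 to -0.68], and with both strands it was -0.93 [-1.13 to -0.75], so the call was lost without that region or without regard to strand. HNRNPH1, the close relative of HNRNPF, had 95 reads in MPS1i J2 against 199 in DMSO J2 and 159 in MPS1i Input against 415 in DMSO Input. Its ratios were -0.51 [-0.89 to -0.16] in J2 and -0.98 [-1.26 to -0.72] in Input, both short of the rule. A region in an intron of HNRNPH1, chr5:179620066-179620672, held most of its J2 reads, 78 in MPS1i and 145 in DMSO. Without it the J2 ratio of HNRNPH1 was -1.09 [-2.0 to -0.31], past the rule.

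HNRNPDL and HNRNPA2B1 went the other way. Most of the added reads lay past the annotated end for HNRNPDL and past the RefSeq end, though inside the longer GENCODE gene, for HNRNPA2B1. HNRNPDL, a paralog of HNRNPD, had 228 reads in MPS1i J2 against 28 in DMSO J2 and 138 in MPS1i Input against 44 in DMSO Input. The log2 ratios were 3.55 [3.0 to 4.20] and 2.04 [1.55 to 2.57], and HNRNPDL was higher in both. Downstream regions that bore its name held 183 of the reads in MPS1i J2 against 12 in DMSO J2 and 129 in MPS1i Input against 4 in DMSO Input. By overlap with the annotated gene (chromosome 4, 82422564 to 82430408, minus strand) the J2 counts were 45 against 16, a ratio of 2.01 [1.19 to 2.96]. Of these, 29 and 8 came from 1 region, chr4:82421919-82422565, which lies almost wholly past the gene's end. That region is also counted in the window past the end below. The other overlapping regions held 16 against 8 J2 reads, too few to be measured. In Input the gene held 9 against 40 reads, a ratio of -1.69 [-2.98 to -0.69] on fewer than 50 reads. The Input ratio of HNRNPDL thus had opposite signs inside the gene and past it.

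In the 19857 bases between its end and the next gene on the strand, HNRNPDL had 210 reads in MPS1i J2 against 19 in DMSO J2 and 109 in MPS1i Input against 4 in DMSO Input. In 5-kb steps the J2 reads of MPS1i were 119, 49, 28 and 14, against 14, 4, 0 and 1 in DMSO. In Input they were 41, 44, 24 and 0 in MPS1i, against 4, 0, 0 and 0 in DMSO. MPS1i J2 reads were thus fewer with distance, and DMSO libraries had few or none past the nearest 5 kb. The most-read downstream J2 region, chr4:82418310-82418662 in L1MC5a and L1MEd copies, had 34 reads in MPS1i J2 against 1 in DMSO J2. The most-read J2 region under the name, chr4:82421919-82422565 at the transcript end with AluSz6 and AluJb copies, had 29 against 8 reads, a ratio of 2.34 [1.24 to 3.75].

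HNRNPA2B1, a reader of exon and RNA-sorting motifs, had 275 reads in MPS1i J2 against 103 in DMSO J2 and 141 in MPS1i Input against 221 in DMSO Input. The log2 ratio was 1.96 [1.63 to 2.31] in J2, a rise, and -0.25 [-0.57 to 0.06] in Input, where the interval included 0. GENCODE gives HNRNPA2B1 (chromosome 7, minus strand) 28.5 kb, from 26173057 to 26201529, and RefSeq 10.8 kb, from 26189927 to 26200746. In the shorter RefSeq span the counts were 20 against 9 in J2, too few to measure, and 35 against 145 in Input, a ratio of -1.64 [-2.23 to -1.11]. In the 25 kb past the RefSeq end they were 590 against 178 in J2, a ratio of 2.27 [2.03 to 2.53], and 302 against 120 in Input, a ratio of 1.73 [1.42 to 2.05]. HNRNPA2B1 was thus lower in Input inside the short gene model and higher in J2 and Input past it. The most-read region, chr7:26177886-26184013, is 6128 bases long, lies on the strand opposite to an intron of NFE2L3 and holds LTR78, AluJb and AluJo copies. It had 104 reads in MPS1i J2 against 18 in DMSO J2, a ratio of 3.05 [2.35 to 3.89].

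**Figure D4:**
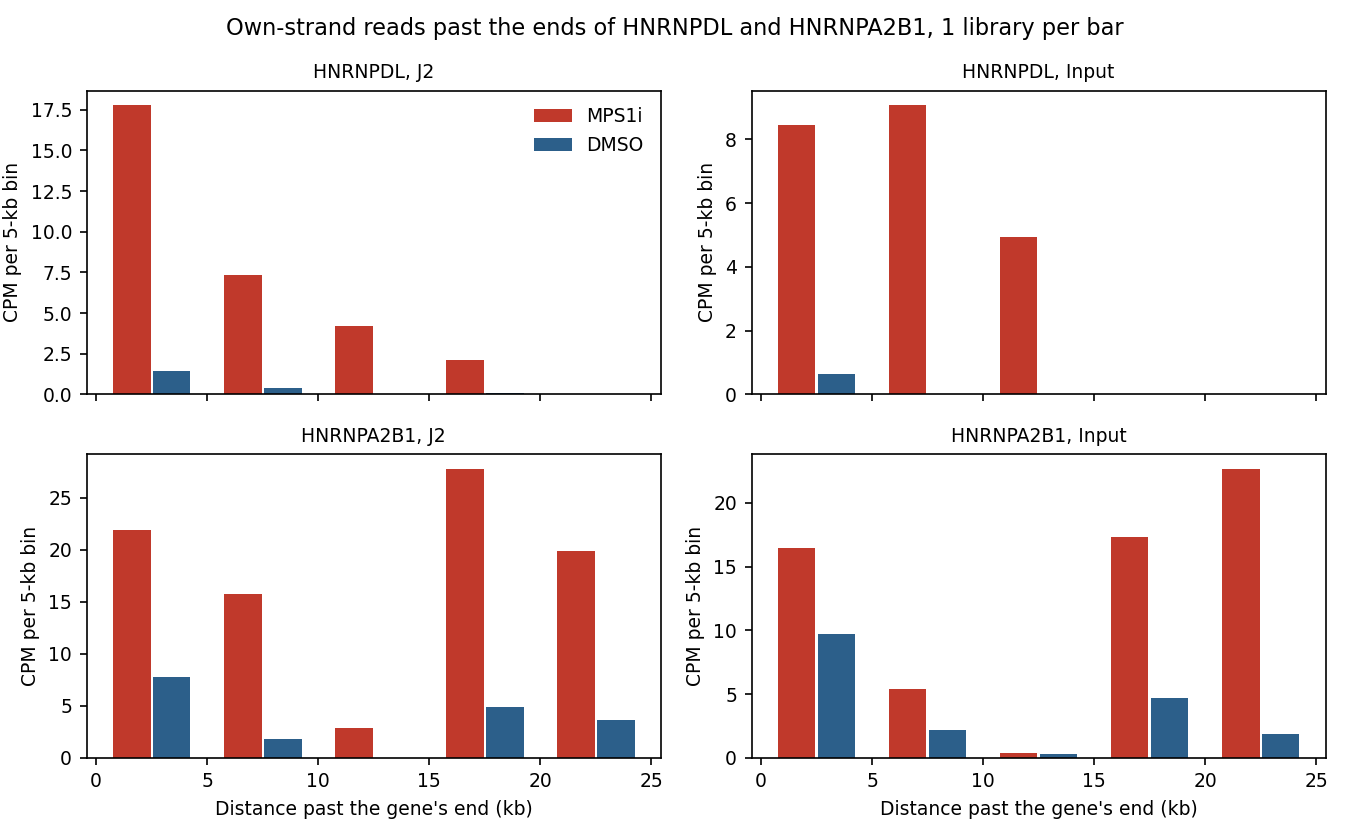
Own-strand CPM in 5-kb bins past the annotated end of HNRNPDL (top) and past the RefSeq end of HNRNPA2B1 (bottom), J2 left and Input right, MPS1i in red and DMSO in blue, 1 library per bar and each panel with its own axis from 0. HNRNPDL bins stop at the next gene on the strand, and MPS1i is above DMSO in every bin with reads of both genes, with 2 reads in each library for HNRNPA2B1 Input at 10 to 15 kb.

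To set these counts beside the rest of the genome, own-strand reads were summed for every protein-coding gene in the 25 kb past its GENCODE end or up to the next gene on the strand. Of 4656 such windows with 50 or more J2 reads, 34.8% were higher and 4.15% lower in MPS1i J2; of 3512 with 50 or more Input reads, 29.2% were higher and 5.92% lower in MPS1i Input. Both tables called 22.4% of 3080 windows higher. Higher downstream windows were thus common in these libraries, and HNRNPDL and HNRNPA2B1 were 2 of 6 measured members that had one in J2. HNRNPA2B1 past its longer GENCODE end had 388 reads in MPS1i J2 against 93 in DMSO J2 and 249 in MPS1i Input against 46 in DMSO Input, ratios of 2.60 [2.28 to 2.95] and 2.82 [2.38 to 3.32].

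HNRNPC had the only lower J2 window among the 6 members measured, the 2235 bases up to LINC00641, and its Input window was lower as well. HNRNPU and HNRNPD also had lower Input windows. HNRNPU had 33 reads in MPS1i Input against 106 in DMSO Input over 25 kb, a ratio of -1.27 [-1.90 to -0.71]. HNRNPD had 79 against 216 reads over 6957 bases, a ratio of -1.05 [-1.44 to -0.68]. HNRNPA1 had no such window, and HNRNPM, HNRNPH1 and HNRNPF had too few reads in theirs. HNRNPK had 95 reads in MPS1i J2 against 103 in DMSO J2 and 47 in MPS1i Input against 57 in DMSO Input, with ratios of 0.43 and 0.12.

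HNRNPD, also known as AUF1, binds AU-rich elements and acts on mRNA decay. By gene name it had 914 reads in MPS1i J2 against 1073 in DMSO J2 and 458 in MPS1i Input against 683 in DMSO Input, log2 ratios of 0.32 [0.19 to 0.45] and -0.18 [-0.35 to -0.01]. Most of its J2 reads were intergenic, 727 in MPS1i and 675 in DMSO, spread over 407 regions. Inside the gene (chromosome 4, 82352498 to 82374503, minus strand) HNRNPD had 89 reads in MPS1i J2 against 200 in DMSO J2, a ratio of -0.62 [-1.0 to -0.25], and 103 in MPS1i Input against 353 in DMSO Input, a ratio of -1.37 [-1.71 to -1.06]. Its Input level inside the gene thus fell by more than 2-fold, and its J2 ratio had opposite signs by name and by overlap. The most-read region, chr4:82349524-82350303 just past the end, had 104 reads in MPS1i J2 against 218 in DMSO J2.

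HNRNPK, which binds C-rich RNA and DNA through KH domains, had 24 reads in MPS1i J2 against 7 in DMSO J2, too few to be called, and 65 in MPS1i Input against 135 in DMSO Input. The log2 ratios were 2.26 [1.07 to 3.78] in J2 and -0.65 [-1.11 to -0.22] in Input. Of the J2 reads, 15 in MPS1i and 2 in DMSO came from 1 intronic region, chr9:83977811-83978110. In DMSO cells HNRNPK was the least enriched by J2 of the members with 50 Input reads, at -4.79 [-6.23 to -3.81] on the log2 scale.

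HNRNPU, a scaffold protein of chromatin and nuclear RNA, and HNRNPA1, a silencer of exons, had too few own-strand reads to be measured. HNRNPU had 9 reads in MPS1i J2 and 2 in DMSO J2, with 2 in MPS1i Input and 8 in DMSO Input, and all lay upstream of the gene. The 3 J2 regions inside HNRNPU were named SNORA100 and held 7 against 28 reads. HNRNPA1 had 2 reads in MPS1i J2 and 8 in DMSO J2, with 12 in MPS1i Input and 11 in DMSO Input. HNRNPA1 has many processed copies in the genome, so its few reads are uncertain. A count of 0 in these libraries would allow up to 0.448 CPM in MPS1i J2, 0.306 in DMSO J2, 0.619 in MPS1i Input and 0.470 in DMSO Input, counting 3 reads as the limit.

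**Figure D5:**
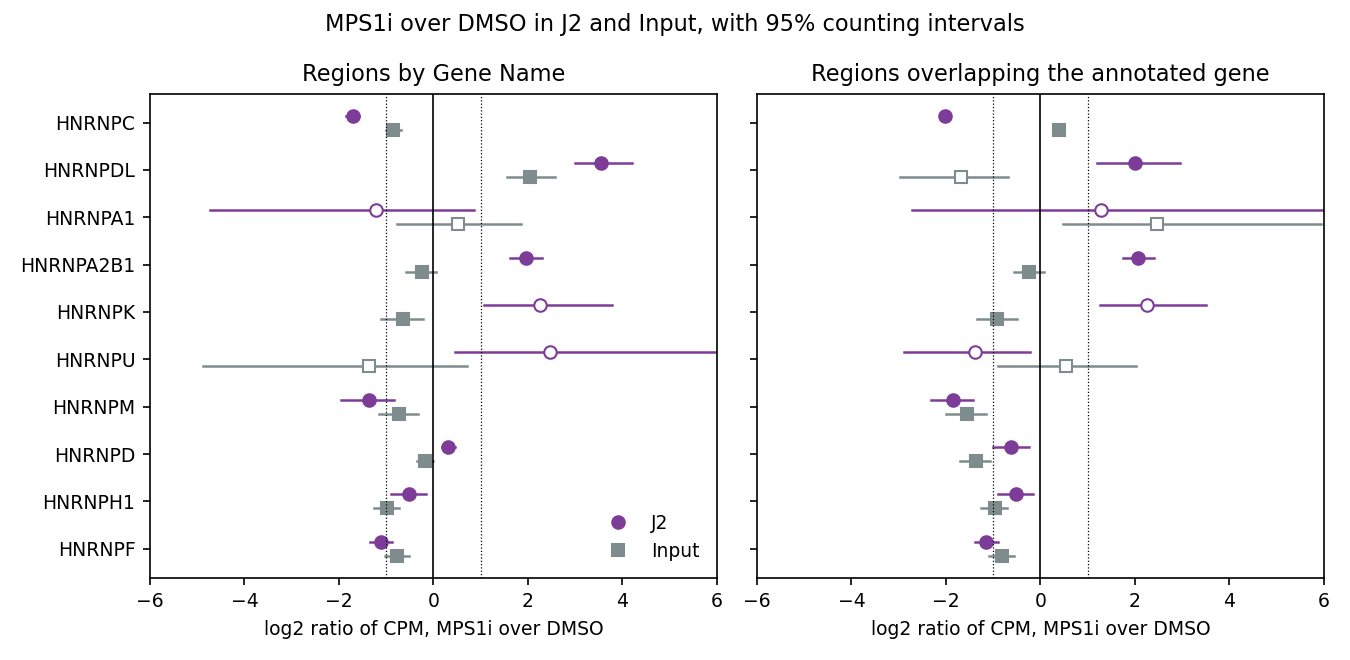
Log2 ratio of CPM, MPS1i over DMSO, for the 10 genes in J2 (purple circles) and Input (grey squares), by gene name (left) and by overlap with the GENCODE gene (right), with 95% counting intervals cut at 6; open symbols mark fewer than 50 reads in the 2 libraries and dotted lines mark 2-fold. HNRNPC, HNRNPM and HNRNPF lie past the lower line in J2 in both panels, HNRNPDL and HNRNPA2B1 (with HNRNPK and other open symbols) past the upper line, and the Input value of HNRNPC in the right panel (0.39) rests on the 2-base region. In that panel HNRNPDL reaches 50 J2 reads only with a region that lies almost wholly past its end.

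Taken by overlap with the GENCODE gene, the J2 calls were those of the same 5 genes, 3 lower and 2 higher of 7 measured, against 20.2% lower and 15.2% higher of 12155 genes. In Input HNRNPM and HNRNPD were lower and none was higher of 7 measured, against 16.3% lower and 12.0% higher of 11065 genes. The change of J2 enrichment was called for HNRNPDL and HNRNPA2B1 by gene name, 2 higher and none lower of 7 measured, against 9.35% higher and 7.74% lower of 13495 genes. Their changes were 1.52 [0.77 to 2.26] and 2.21 [1.76 to 2.66], and without its most-read region in each table HNRNPDL stood at 0.90 [-0.02 to 1.81], no longer called. By overlap the same 2 were higher and HNRNPC was lower, against 8.87% higher and 7.78% lower of 11765 genes. The HNRNPC call is the one that rests on the 2-base region. The HNRNPDL change by name joins regions inside the gene and past it. Its downstream regions had ratios of 4.42 [3.64 to 5.46] in J2 and 5.24 [4.02 to 7.31] in Input. J2 thus rose no further than Input there. Past the GENCODE end of HNRNPA2B1 the ratios were 2.60 in J2 and 2.82 in Input. Past its RefSeq end they were 2.27 in J2 and 1.73 in Input. A change of enrichment past these ends was not tested. Scaling by TMM factors moved the median ratio of all genes to -0.29 in J2 and -0.21 in Input, and the J2 calls of the 5 genes held under it.

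J2 enrichment itself differed between members. In MPS1i cells the log2 of J2 over Input was -0.29 for HNRNPC, 0.53 for HNRNPD, -0.35 for HNRNPF, -1.50 for HNRNPM, 0.26 for HNRNPDL, -1.21 for HNRNPH1 and 0.49 for HNRNPA2B1. In DMSO cells it was 0.57 for HNRNPC, 0.03 for HNRNPD and -0.01 for HNRNPF, and -0.86 for HNRNPM, -1.26 for HNRNPDL, -1.68 for HNRNPH1 and -1.72 for HNRNPA2B1. The median over 11839 genes was 0.31 in MPS1i and 0.34 in DMSO cells. By gene name, HNRNPD and HNRNPA2B1 of these 7 genes thus lay above that median in MPS1i cells, where HNRNPC was below it. HNRNPC was the one above it in DMSO cells. By overlap with the annotated gene, values in MPS1i and DMSO cells were -0.68 and -1.44 for HNRNPD, 0.60 and -1.71 for HNRNPA2B1, and 1.79 and -1.91 for HNRNPDL. HNRNPC was at -3.73 and -1.32, or at 0.12 and 0.87 without the 2-base region. These places thus depend on the assignment of regions, and the median was taken by gene name only.

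Per length of the annotated gene, Input levels in MPS1i cells were 1.59 CPM per kb for HNRNPH1, 1.52 for HNRNPF, 1.09 for HNRNPK, 1.04 for HNRNPA2B1, 0.966 for HNRNPD, 0.293 for HNRNPM and 0.237 for HNRNPDL. In DMSO cells they were 3.13 CPM per kb for HNRNPH1, 2.67 for HNRNPF, 2.05 for HNRNPK, 1.23 for HNRNPA2B1, 2.51 for HNRNPD, 0.869 for HNRNPM and 0.799 for HNRNPDL. HNRNPC had 30.3 CPM per kb in MPS1i Input and 23.2 in DMSO Input with the 2-base region included. HNRNPH1 and HNRNPF stayed at the top of the other members in both.

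On the opposite strand, 1 long region lay over most of each of several members. Such a region covered at least 50% of the GENCODE gene for 7 of the 10 members in each table, against 37.0% of 19907 protein-coding genes in J2 and 38.7% in Input. For HNRNPA2B1, not among the 7, it covered 97.6% of the shorter RefSeq span in J2 and 99.5% in Input. For HNRNPC it ran over 59133 bases, chr14:21210553-21269685 on the plus strand, with 45 reads in MPS1i J2 against 130 in DMSO J2, a log2 ratio of -0.97 [-1.51 to -0.48]. This region held 32.8% of the opposite-strand J2 reads over the gene in MPS1i and 38.7% in DMSO. Its Input counterpart had 81 against 186 reads, a ratio of -0.80 [-1.20 to -0.42]. For HNRNPF the opposite-strand region had 91 reads in MPS1i J2 against 203 in DMSO J2, a ratio of -0.61 [-0.98 to -0.25], and 109 in MPS1i Input against 186 in DMSO Input, a ratio of -0.37 [-0.73 to -0.02]. For HNRNPD it had 21 against 38 reads in J2 and 29 against 102 in Input, where the ratio was -1.40 [-2.07 to -0.81]. In J2, ratios of HNRNPC and HNRNPF on this strand were thus below 0 as on the genes' own strand, and nearer to 0; in Input the interval of HNRNPC on this strand held its own-strand ratio by name.

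The genes nearest to HNRNPC over 3 log2 ratios (J2, Input, and J2 over Input in DMSO cells), out of 11839 genes with 50 or more reads in each pair, were RNF223, MIR7854, MIR4714, MAGI1 and CASP9, at Euclidean distances of 0.106 to 0.144. MIR4714, for example, had 866 reads in MPS1i J2 against 3797 in DMSO J2 and 670 in MPS1i Input against 1605 in DMSO Input. These names, like that of HNRNPC, are HOMER's nearest gene and can stand for flanking sequence. Among the members HNRNPF lay closest to HNRNPC, at 0.842, and HNRNPDL farthest, at 6.27.

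Other RNA-binding genes were counted over 4 lists, by gene name, where 17.3% of all gene names measured were lower and 21.2% higher in J2, and 13.5% were lower and 17.0% higher in Input. By overlap with the GENCODE genes the shares over all genes were 20.2% lower and 15.2% higher in J2, and 16.3% lower and 12.0% higher in Input. Of 18 other hnRNP and related genes, 14 were measured in J2, with 1 lower (PTBP1, a repressor of exons, 34 reads in MPS1i against 118 in DMSO) and 1 higher (PCBP1, a poly-C binding protein, 101 against 20). In Input 3 of 13 were lower and none higher, among them HNRNPR with 72 reads in MPS1i against 353 in DMSO, a ratio of -1.89 [-2.28 to -1.53], and TARDBP with 41 against 116. The list's median log2 ratio was -0.38 in J2 and -0.45 in Input, against -0.03 and -0.05 over all gene names. By overlap with the GENCODE genes 5 of 13 were lower and none higher in J2, with a median of -0.78, and 3 of 14 were lower and none higher in Input, with a median of -0.72; medians over all genes were then -0.22 and -0.23.

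Of 14 SR protein genes, which mostly favour exon inclusion, 12 were measured in J2, with 3 lower and 2 higher. SRSF4 had 276 reads in MPS1i J2 against 1182 in DMSO J2, a ratio of -1.55 [-1.74 to -1.36], and SRSF8 had 56 against 22, a ratio of 1.88 [1.16 to 2.68]. In Input 4 of 11 SR genes were lower and none higher. The list's medians were -0.04 in J2, close to that over all gene names, and -0.92 in Input. By overlap 2 of 9 were lower and none higher in J2, with a median of -0.90, so the J2 median depends on the assignment, and 4 of 8 were lower and none higher in Input, with a median of -0.99.

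Of 25 spliceosome and U2AF genes, 10 of 19 measured were lower and 1 higher in J2, with a median of -1.09, and 9 of 21 were lower and none higher in Input, with a median of -0.75. These lower shares exceeded those over all gene names, 17.3% in J2 and 13.5% in Input. By overlap 14 of 21 were lower and 1 higher in J2, and 11 of 24 were lower and 1 higher in Input. SNRNP70, of the U1 particle, had 104 reads in MPS1i J2 against 523 in DMSO J2, a ratio of -1.78 [-2.10 to -1.48]. PRPF8, at the core of the spliceosome, had 39 against 186, a ratio of -1.69 [-2.24 to -1.20]. SNRPF, an Sm protein, was the higher one, with 388 against 117, a ratio of 2.27 [1.98 to 2.59].

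Of 21 other RNA-binding genes, 8 of 20 measured were lower and 1 higher in J2, and 7 of 19 were lower and 1 higher in Input. EWSR1 had 68 reads in MPS1i J2 against 394 in DMSO J2 and 22 in MPS1i Input against 207 in DMSO Input, ratios of -1.98 [-2.38 to -1.61] and -2.81 [-3.54 to -2.20]. ADAR, the RNA editing enzyme that is also induced by interferon, was the one higher in Input, with 733 against 390 reads, a ratio of 1.31 [1.13 to 1.49]. DHX9, a helicase that unwinds RNA duplexes, was the one higher in J2, with 54 against 37 reads, a ratio of 1.09 [0.46 to 1.74]. The medians of the measured genes were -0.60 in J2 and -0.72 in Input. By overlap 9 of 20 were lower and none was higher in J2, and 6 of 19 were lower and 1 higher in Input.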

How the data were processed

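The deposited files give unnormalized counts of reads, whole numbers, for regions of 1 strand each on GRCh38 (hg38), in 1 table for J2 and 1 for Input whose regions differ. The submitters' processing notes name HOMER, featureCounts, STAR, cutadapt, Trimmomatic and Trim Galore, with no version or role; how regions were called and how duplicates and multi-mapping reads were counted is not given in the sources used here. Per the labels' protocols, RNA was extracted with TRIZOL and miRNeasy, and libraries were made with a stranded SMARTer kit for total RNA, then made into DNBSEQ libraries.

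From these counts, regions were summed per HOMER gene name on the strand that GENCODE 29 gives the gene, or per overlap with the GENCODE gene (bedtools 2.31.1). CPM is per summed count of the library. Ratios used a pseudocount of 0.5 and exact Clopper-Pearson 95% intervals, and the change of J2 enrichment used a delta-method interval on 4 counts with at least 50 J2 and 20 Input reads. Intervals and floors cover counting error only, since reads carry no molecular identifiers here. With 1 library per group there is no test and no p-value. Python 3.11.15 (pandas 2.3.3, numpy 2.4.6, scipy 1.17.1, matplotlib 3.10.9) and R 4.3.3 with edgeR 4.0.16 (TMM factors only) were used, and the steps were tested on simulated data. The named genes are all 10 members, at most 2 higher and 2 lower genes per list, the 5 genes nearest to HNRNPC, and the most-read regions. The members and lists were chosen with earlier results of these data known. The downstream windows, the separation of regions of 20 bases or fewer, the RefSeq spans, the profile along HNRNPC, the opposite-strand regions and the split by repeats were chosen after values were seen. The 2 tables were scaled separately. Alternatives were other scalings, thinning to the shallowest library, filters on regions, other assignments of regions to genes, both strands, a minimum of 20 counts, and leaving out the most-read region. No genome sequence was at hand for the intronic regions, so their sequences are not shown.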

Additional observations from a re-analysis of the deposited data

Results flagged for a closer look

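The J2 and Input ratios of HNRNPK and HNRNPD lay on opposite sides of 0. With 1 library per group the difference was not tested across replicates; its counting interval, the change of J2 enrichment, was 2.91 [1.65 to 4.16] for HNRNPK, on too few J2 reads to be called, and 0.50 [0.28 to 0.71] for HNRNPD, short of the 2-fold rule. HNRNPK had a log2 ratio of 2.26 in J2, on 24 reads in MPS1i and 7 in DMSO, and of -0.65 in Input, on 65 and 135 reads. HNRNPD had a log2 ratio of 0.32 in J2, on 914 reads in MPS1i and 1073 in DMSO, and of -0.18 in Input, on 458 and 683 reads. The J2 ratio of HNRNPD was 0.06 with TMM factors, -0.01 with median-of-ratios factors and -0.62 by overlap with the annotated gene, so its sign depends on the scaling and on the assignment of regions.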

How the results depend on the processing

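The HNRNPC J2 ratio of -1.71 kept its sign under every alternative run, and lost its call in 1: it was -1.97 with TMM factors, -2.04 with median-of-ratios factors, -0.42 [-1.08 to 0.21], not called, with each region counted at most once per library, and -2.02 by overlap with the GENCODE gene (also without regions of 20 bases or fewer) or with the RefSeq span. Its Input ratio of -0.85, not called, was -1.0 with TMM factors and -1.05 with median-of-ratios factors, called lower in both, 0.08 with each region counted at most once, 0.39 by overlap with the GENCODE gene or the RefSeq span, and -1.27 by overlap without regions of 20 bases or fewer. Its change of J2 enrichment of -0.86 was -0.50 [-1.37 to 0.36] with each region counted at most once, -0.68 [-1.37 to 0.00] over matched regions and -2.40 by either overlap. In Input 1 member was called, against 2 without mitochondrial regions, 3 with TMM factors, 3 with median-of-ratios factors, 0 with each region counted at most once, 2 by overlap with the GENCODE gene, 2 without intergenic regions, 2 without the most-read region and 3 by the RefSeq span. In J2 5 members were called, against 2 with each region counted at most once (HNRNPDL and HNRNPM). Both strands called 5 with HNRNPK in place of HNRNPF, leaving out the most-read region 5 with HNRNPH1 in place of HNRNPF, regions with 10 or more reads 4 without HNRNPM, and the RefSeq span 4 without HNRNPA2B1. A minimum of 20 counts called 6 in J2, with HNRNPK added. For the change of J2 enrichment 2 were called, against 0 with each region counted at most once and 1 without the most-read region. Overlap with the GENCODE gene called 3, with HNRNPC added, and both strands or a minimum of 20 counts called 3, with HNRNPK added. The RefSeq span called 2, with HNRNPC in place of HNRNPA2B1. The HNRNPDL Input ratio turned to -1.69 by overlap with the GENCODE gene or the RefSeq span and to -1.12 without intergenic regions, where the regions past the gene are left out by construction, and its change of enrichment turned to -0.10 with each region counted at most once. Elsewhere the cause was not tested. Over the other members, the J2 ratio stayed within its interval in 74 of 99 cases, Input in 75 of 99 and the change in 79 of 99. These cases include HNRNPA1 and HNRNPU, which were below the minimum and had wide intervals. A ratio called in the main setting changed sign in 0, 3 and 1 of these cases. Ratios not called there could change sign too, such as HNRNPD in J2, from 0.32 to -0.62 by overlap with the GENCODE gene. No paired analysis was possible because each group has 1 library, and no replicate could be left out. Genes under 50 reads per pair could not be measured at this depth.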
